A study of Mus musculus with 9 samples.

Results

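In the HD-het striatal cells, 657 rows of the gene table held ribosome footprint levels that lay outside the range of every control and HD-homo library, 320 above it and 337 below it. Levels are CPM, the count of ribosome-protected fragments on a gene divided by the library total and scaled to 1000000 counts. The genes were chosen by these levels in all 9 libraries. A gene had to reach a mean of 5 CPM in at least 1 line, and its 3 HD-het values had to lie all above or all below the 6 others. Its HD-het mean had to be at least 2-fold from each of the other means, and those had to be under 1.5-fold apart. The table held 36410 rows, and 9918 of them reached 5 CPM in at least 1 line. The genes higher in HD-het were 3.23% of these and the genes lower in HD-het 3.40%. Because the levels chose the genes, they are given as a description with no test.

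Footprints were measured in 3 immortalized mouse striatal precursor lines of C57/BL6 origin, with 3 libraries per line from separate rounds of culture. The control line, STHdhQ7/Q7, encodes 7 glutamines in both huntingtin alleles. The HD-het line, STHdhQ7/Q111, carries 1 allele with 7 and 1 allele in which 111 glutamines were knocked in. In the HD-homo line, STHdhQ111/Q111, both alleles have the expansion to 111. All cells were exposed to cycloheximide, which arrests elongating ribosomes, for 10 min before lysis. Each genotype was 1 cell line, so a property of the HD-het genotype and a property of the HD-het line cannot be told apart. No mRNA level was used, so a footprint level does not separate the amount of an mRNA from its translation.

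A footprint is the short stretch of mRNA that a ribosome shields from nuclease. A gene with a higher CPM held a larger share of the footprints of its library, and these levels do not give total translation per cell. Huntington disease is caused by an expanded glutamine tract in huntingtin, and the striatum is the brain region it damages most. A level graded by the number of expanded alleles would put the HD-het line between the others. The genes described here were chosen for another pattern, with the line with 1 expanded allele apart from the lines with 0 and 2. Their pattern is thus set by the criteria, and a dependence on the number of expanded alleles was not tested. Many of them encode proteins of the secretory route, the extracellular matrix and the lysosome, or belong to the machinery that builds ribosomes and packages new DNA.

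Huntingtin itself was not among these genes. Htt footprints were 27.8, 30.1 and 28.8 CPM in control, 19.1, 20.6 and 19.4 CPM in HD-het and 5.90, 8.09 and 6.40 CPM in HD-homo libraries. The HD-het values thus lay between the others, with no overlap between lines. Library totals ran from 22504543 to 41888701 counts, and a count of 3 corresponded to between 0.0716 and 0.133 CPM. Of 26 markers of striatal progenitors and projection neurons, 18 stayed under 1 CPM in every line, among them Gad1, Drd1, Drd2 and Bcl11b. The 6 that reached 5 CPM were Foxp1, Meis2, Ebf1, Dlx2, Zfp503 and Ppp1r1b, none of them a higher or lower gene. Of 8 markers of neural stem cells or radial glia, 6 reached 5 CPM, again none a higher or lower gene. Nes, Pax6 and Fabp7 had their largest mean in HD-het, and Vim, Sox2 and Msi1 theirs in control. Nes averaged 1055 CPM in HD-het, against 401 for control and 7.19 for HD-homo, and Sox2 averaged 32.9 against 51.5 and 2.32. Markers of fibroblasts and mural cells summed to between 28338 and 30526 CPM in HD-het, against 7016 to 9802 CPM in control and 5929 to 7335 CPM in HD-homo. The higher genes included 4 of the 9 such markers that reached 5 CPM, Pdgfrb, Col1a1, Col3a1 and Notch3, while Rgs5 and Lum stayed under 1 CPM in every line. Other markers of the list had another order, since Col1a2 was at a mean of 86.8 CPM in HD-het against 24.1 in control and 1052 in HD-homo, and Dcn at 11.1 against 7.32 and 41.5. Most of the sum came from Col1a1 and Acta2, the latter at 8164 CPM in HD-het, 4120.5 in control and 273 in HD-homo. The part of these marker levels in the matrix genes below was not tested. In such bulk libraries, fewer cells of a type and less RNA per cell cannot be told apart.

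The same criteria set for the control line as the one apart found 33 higher and 79 lower genes of 9918. Set for the HD-homo line, they found 124 higher and 165 lower genes. The HD-het line was therefore the one that stood apart most often. All 3 HD-het values lay above the 6 others in 2013 genes and below them in 3151. Of these, 1379 and 2853 also had control and HD-homo means under 1.5-fold apart, so the 2-fold criterion removed most of the genes, and more of the lower than of the higher ones. The higher genes made up 48.7% of the 657. With TMM factors, which allow for a few abundant genes taking a larger share of a library, the count was 349 higher and 269 lower, or 56.5% higher. With the size factors of DESeq2 it was 364 higher and 252 lower, or 59.1% higher. Both scalings moved the median log2 difference of all 9918 genes by under 0.1, from -0.13 to -0.07 and -0.05. These log2 differences set the HD-het mean against the mean of both other lines, with 0.1 CPM added to each.

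The edgeR quasi-likelihood test, run on all genes, showed how widely the HD-het line differed. Of 12678 genes tested, 2759 were called higher in HD-het than in control and also than in HD-homo (21.8%), and 2771 lower than in both (21.9%), at an adjusted p-value under 0.05 in each contrast. All 657 genes described here were among these calls, and nothing is read from this because the same libraries chose them. The calls are used below to describe gene lists beside that background. A list rests on the same libraries as the choice of genes, so its counts are not independent evidence.

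The median distance of the higher genes from the nearer line was 2.51-fold, and 60 were at least 4-fold and 16 at least 16-fold away. Among the lower genes the median was 2.28-fold, and 19 were at least 4-fold and 7 at least 16-fold away. The HD-het replicates varied by a median coefficient of variation of 9.69% in the higher and 9.01% in the lower genes, against 8.72% over all genes considered. In the higher genes the other lines varied more than usual, by 15.1% in control and 17.9% in HD-homo against 6.52% and 11.6% over all genes. In the lower genes these values were 6.80% and 11.7%. HD-het replicate 3 was the most extreme HD-het library in 178 of the 320 higher genes and in 80 of the 337 lower ones. Higher genes took 11.7% ± 1.17 (SD, n = 3) of all counts in HD-het, against 3.37% ± 0.663 in control and 3.34% ± 0.359 in HD-homo libraries. Lower genes took 3.19% ± 0.0608 in HD-het, against 7.57% ± 0.271 and 8.05% ± 0.217. At the edge of the 2-fold criterion, Coro2b, Ero1l and Fam219a were just inside at 2.00 to 2.01-fold higher, and Tubd1, Tmed7 and Nudt16 just outside at 2.00-fold when rounded. Among lower genes, Hist1h2ae, D10Wsu102e and Rnmtl1 were just inside and Hist1h1e, Dcaf13 and Grwd1 just outside, all at 2.00-fold when rounded.

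The genes with the largest distance were close to silent in both other lines. Lrrn1, which encodes a leucine-rich repeat membrane protein of neurons and lies at chr6:107529726-107570228 of GRCm38, had 40.3, 45.9 and 54.1 CPM in the HD-het libraries. Its 3 control libraries held 1, 0 and 4 counts and its 3 HD-homo libraries 1, 2 and 2 counts. The ratio of pooled levels, with the counts of a line summed over its libraries and divided by their summed totals, was 874 against control (95% exact interval 374 to 2694) and 766 against HD-homo (328 to 2359), intervals that cover counting error only. Lrrn1 was thus present in 1 line and near the counting floor in the other two.

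Itga8, the alpha 8 integrin chain that pairs with beta 1, lies at chr2:12106632-12301985 and had 10.7, 10.4 and 11.1 CPM in HD-het. It had 6 counts in all control and 5 in all HD-homo libraries, for ratios of pooled levels of 168 (77.1 to 460) and 177 (75.6 to 546). Plxdc2, a plexin-domain membrane protein on the same chromosome (chr2:16355740-16761132), had 15.4, 13.1 and 18.3 CPM in HD-het, and its pooled level was 205 times that of control (99.0 to 510) and 139 times that of HD-homo (73.2 to 305). In these genes the control and HD-homo libraries were all within a few counts of 0. The criteria left no room for a graded level, so its absence is not a result.

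Col14a1 encodes a collagen that sits on the surface of collagen fibrils. It had 32.6, 29.3 and 44.3 CPM in HD-het libraries, 0.528, 0.454 and 0.309 in control and 0.255, 0.282 and 0.667 in HD-homo, or 82.3-fold and 88.2-fold more. Podn, a small leucine-rich matrix proteoglycan, was at 26.7 ± 2.78 CPM (SD, n = 3) in HD-het, 73.2-fold and 100.2-fold above the others. Itga1, a collagen-binding integrin chain, was at 97.4 ± 13.7 CPM against 2.84 ± 1.24 and 3.74 ± 1.99, and Itgbl1, a secreted protein with integrin-like repeats, at 34.2 ± 4.84 CPM, 39.1-fold and 26.4-fold higher. In each of these genes the control and HD-homo libraries overlapped.

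The remaining leading genes came from other families. Erythroferrone is a secreted protein that binds BMPs, and its gene has a row under the current symbol Erfe and a row under the older symbol Fam132b. The Erfe row read 51.4, 42.6 and 56.3 CPM in HD-het libraries and under 1 CPM in each of the other 6, and the Fam132b row was 64.4-fold and 71.6-fold higher, so the rows do not count as separate genes. Apoe, the main lipid carrier of the brain, was at 28.1 ± 2.66 CPM in HD-het against 0.476 ± 0.118 in control and 0.492 ± 0.0774 in HD-homo. Kcnab1, an auxiliary subunit of voltage-gated potassium channels, was at 46.2 ± 3.77 against 0.920 ± 0.198 and 0.926 ± 0.521. Ptprd, a receptor phosphatase of synapses, was at 31.1 ± 2.16 against 1.11 ± 0.130 and 1.12 ± 0.141. Control and HD-homo means of Ptprd, Kcnab1 and Apoe were nearly equal, while the HD-het mean was 27.9-fold or more above each.

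**Figure D1:**
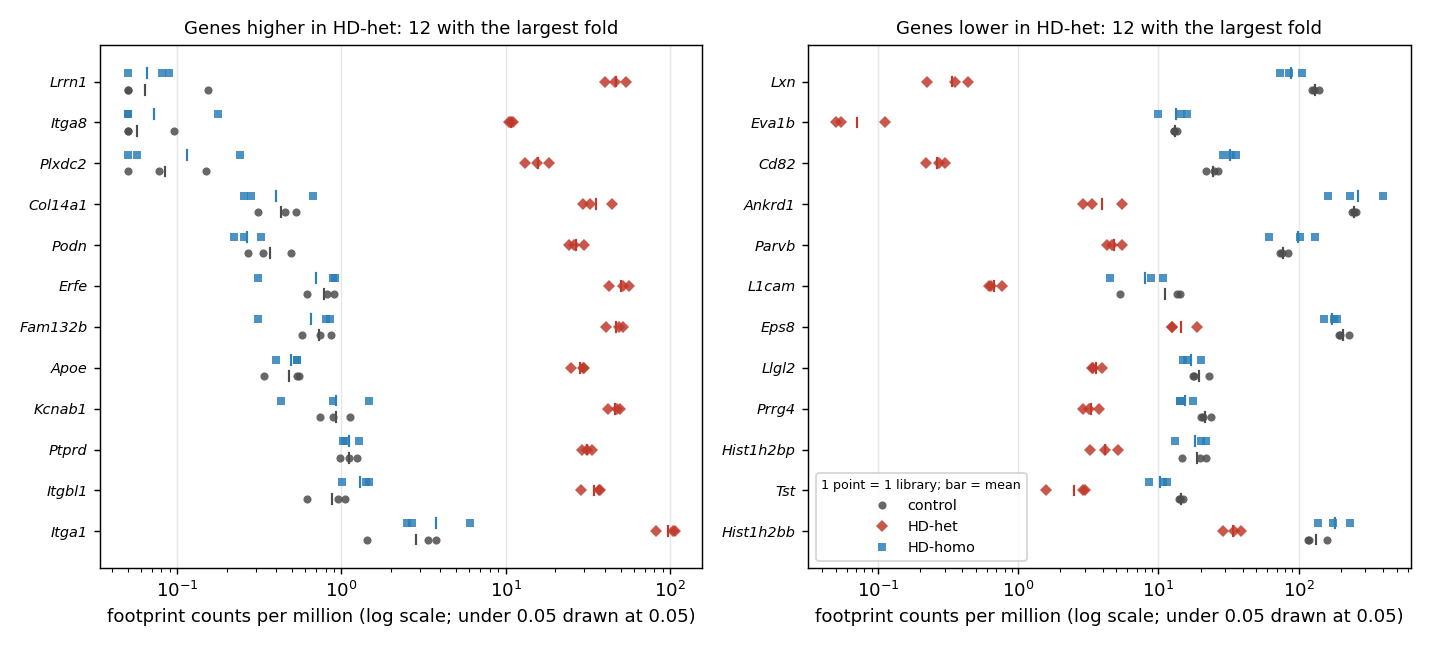
Each panel shows the 12 genes with the largest distance of HD-het from the nearer line, with 1 point per library, a bar at the mean of each line, and CPM on a log axis (points under 0.05 are drawn at 0.05). In every row the red HD-het points stand clear of the grey control and blue HD-homo points, which overlap each other in every row of the left panel and in some rows of the right.

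Matrix genes were also the most abundant of the higher group. Fibroblast-type collagens, fibronectin and fibrillin form the scaffold around mesenchymal cells, and integrins are the receptors that bind it. Col1a1 was at 14509, 16918 and 16604 CPM in HD-het libraries, against 3541, 4181 and 2337 in control and 5210, 4343 and 4479 in HD-homo, 4.77-fold and 3.42-fold higher. Fn1 was at 13558 ± 3552 CPM, 4.97-fold and 4.81-fold higher, with HD-het replicate 3 at 17660 and the other two at 11478 and 11537. Col12a1, another fibril-associated collagen, was at 8080 ± 1494 CPM against 494 ± 173 and 386 ± 84.6, 16.3-fold and 20.9-fold higher. It combined a large distance with a high level, while most of the other leading genes were rare.

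Of the 22 collagen chains that reached 5 CPM, 6 were among the higher genes (27.3%) and 0 among the lower ones. These were Col1a1, Col3a1, Col4a5, Col5a1, Col12a1 and Col14a1, and Col5a1 was 8.83-fold and 11.3-fold higher. The median log2 difference of the list was 1.93, against -0.13 over all genes, and 23 of 32 tested chains were called higher and 1 lower. Control and HD-homo means were at least 1.5-fold apart in 15 of the 22, which kept those chains out. Among 25 integrins and laminins, 8 were higher (32.0%), none was lower and the median log2 difference was 1.75. They were Itga1, Itga5, Itga8, Itgav, Itgb3, Itgb6, Itgbl1 and Lamc1. Itgb3 was at 115 ± 5.18 CPM against 17.2 ± 4.92 and 15.0 ± 5.85, and Lamc1, a laminin chain of basement membranes, at 1526 ± 84.5 against 399 ± 123 and 280 ± 69.7.

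Secreted matrix proteins held 7 higher genes of 45 (15.6%), Ctgf, Wisp1, Fn1, Fbln5, Fbn1, Ltbp3 and Hspg2, and 0 lower ones. Ctgf, a matricellular protein and target of YAP, was at 6834 ± 1896 CPM against 1804 ± 658 and 2476 ± 665, and Fbn1, the main protein of microfibrils, was 3.49-fold and 4.70-fold higher. Extracellular proteases and their inhibitors held 10 higher genes of 37 (27.0%) and 1 lower one, Adamts5. Adamts2, which trims the ends of fibrillar procollagens, was at 13.6 ± 4.63 CPM against 0.627 ± 0.160 and 0.801 ± 0.0403. The inhibitors Timp1 and Timp2, and also Serpinf1 and the collagen chaperone Serpinh1, were 2.14-fold to 3.55-fold higher. Timp1 was at 1530.2 ± 386 CPM. The lower gene, Adamts5, cleaves aggrecan, and its levels were 2.47, 2.58 and 4.96 CPM in HD-het against 6.17 to 8.15 CPM in the 6 other libraries, and with TMM factors it was not among the lower genes.

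Of 32 contractile genes and SRF targets, 3 were higher (9.4%), Mylk, Tpm1 and Tpm2, and 0 lower. The median log2 difference was 0.93, and 21 of 34 tested were called higher and 1 lower. Control and HD-homo means were at least 1.5-fold apart in 21 of the 32, which kept those out. Tpm1, an actin-binding tropomyosin, was at 7351 ± 918 CPM against 2708 ± 200 and 1972 ± 372. Mylk, the kinase that phosphorylates myosin light chain, was 8.10-fold and 10.7-fold higher at a mean of 8.88 CPM. Among 25 YAP-TEAD targets, 4 were higher, Ctgf, Lats2, Tgfb2 and Foxf2, while Ankrd1 was among the genes with the largest distance in the other direction. Ankrd1, at chr19:36111965-36119844, encodes an ankyrin repeat protein of the nucleus and the sarcomere. Its levels were 3.37, 2.91 and 5.53 CPM in HD-het, 240 to 259 CPM in control and 161 to 401 CPM in HD-homo, 63.3-fold and 67.2-fold lower. Ankrd1 was the only lower gene of the 25 (4.0%), 17 of the 25 lay above 0, and 13 of 26 tested were called higher and 2 lower.

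Of the 24 lists written first, the lysosomal proteins held the largest number of higher genes. Lysosomes are the acidic organelles in which proteins, lipids and glycans taken up or enclosed by autophagy are broken down, and hydrolases reach them through the secretory route. Of 47 lysosomal proteins that reached 5 CPM, 19 were higher (40.4%) and 0 lower. The median log2 difference of the list was 1.12, 45 of the 47 lay above 0, and 38 of 50 tested genes were called higher and 1 lower. Control and HD-homo were close for this list, with a median log2 ratio of 0.01.

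Proteases of the lysosome included Ctsf, which had the largest distance of the list. Ctsf, cathepsin F, was at 23.6, 22.5 and 23.7 CPM in HD-het libraries, 3.70, 2.34 and 2.74 in control and 1.87, 3.22 and 3.47 in HD-homo, 7.94-fold and 8.14-fold higher. Ctsd, cathepsin D, was at 836 ± 64.3 CPM against 296 ± 60.3 and 227 ± 26.1. Lgmn, legumain, was at 309 ± 4.31 CPM, 2.80-fold and 4.09-fold higher, and Tpp1 and Ctsa were 2.33-fold to 3.72-fold higher. Among enzymes that degrade lipids and glycans were Naglu, Hexa, Man2b1, Gaa, Smpd1, Asah1, Galns and Arsa, at 2.05-fold to 3.75-fold. Npc1, the membrane protein that exports cholesterol from lysosomes, was at 84.5 ± 12.4 CPM against 19.9 ± 2.92 and 18.2 ± 2.57. Grn, progranulin, was 3.42-fold and 4.22-fold higher, Lamp2, a major membrane protein of lysosomes, 2.78-fold and 2.57-fold, and Psap, the precursor of the saposins, 2.17-fold and 2.78-fold.

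**Figure D2:**
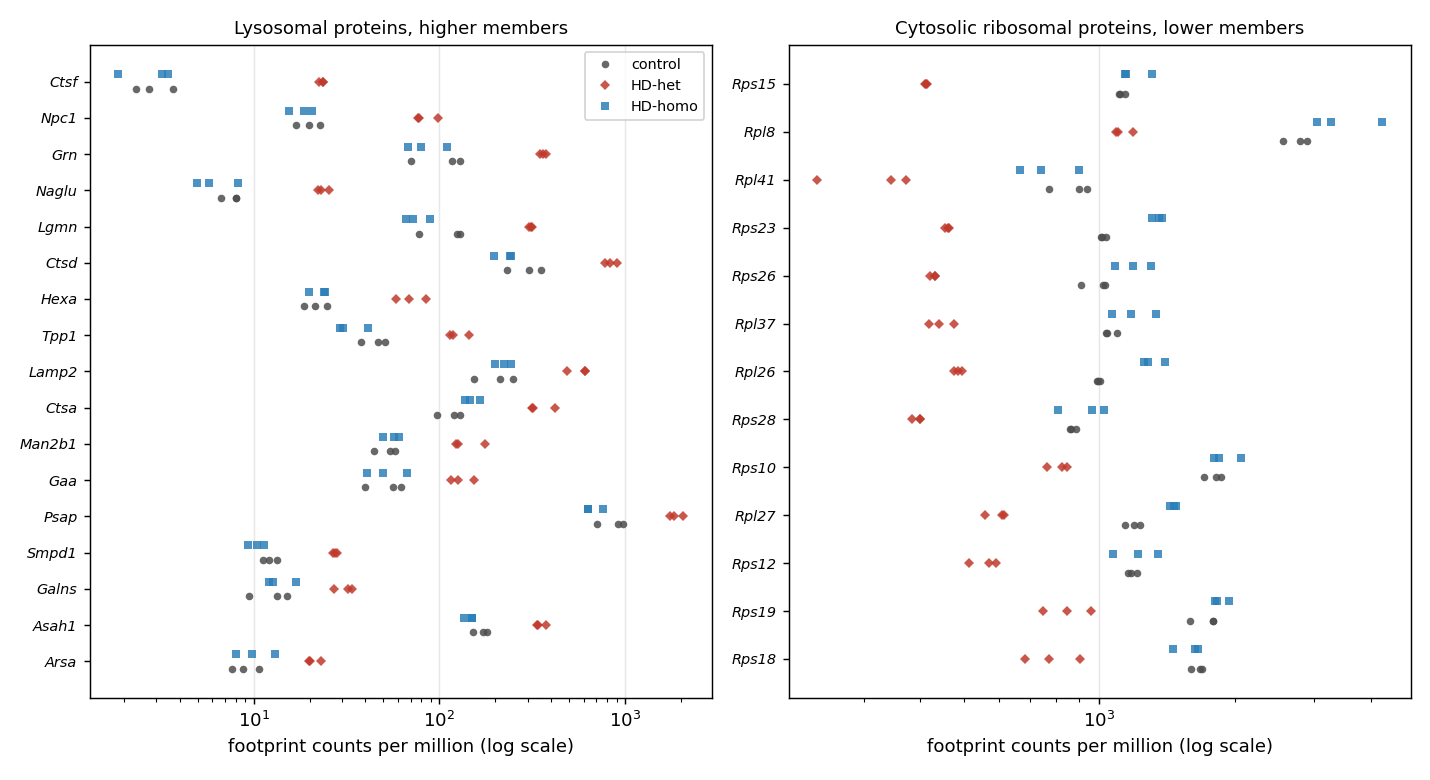
CPM on a log axis for 17 of the 19 lysosomal genes that were higher in HD-het (left) and 13 of the 14 cytosolic ribosomal protein genes that were lower (right), with 1 point per library. The HD-het points lie to the right of the 6 others in each lysosomal row, from Ctsf to Arsa, and to the left of them in each ribosomal row, from Rps15 to Rps18.

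The hexamer CACGTG is the core of the elements through which TFEB and TFE3 activate lysosomal genes, and it is also an E-box for other factors such as MYC. Promoters of 300 bases (250 before and 50 after a start site) were taken from RefSeq on GRCm38.p6, where 14 of the 19 genes had one. CACGTG, which reads the same on both strands, was in 7 of these 14 promoters (50.0%), in 15 of 37 for the whole list (40.5%), in 12.2% of all 7893 promoters of considered genes and in 8.09% of 27025 promoters of the table. Over all 246 higher genes with a promoter the share was 13.4%, and over 263 lower ones 13.7%. The share was therefore high in the lysosomal list and similar in higher, lower and considered genes. The stretches below show it in 5 of the 7, with the hexamer in capitals, 5′ to 3′ on the strand of the gene.
Ctsf, chr19:4855039-4855138, plus strand: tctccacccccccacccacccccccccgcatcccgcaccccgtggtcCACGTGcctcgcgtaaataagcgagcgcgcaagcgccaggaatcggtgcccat
Ctsd, chr7:142387873-142387972, minus strand: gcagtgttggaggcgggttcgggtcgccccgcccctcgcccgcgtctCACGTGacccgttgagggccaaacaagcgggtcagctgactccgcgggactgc
Naglu, chr11:101069974-101070073, plus strand: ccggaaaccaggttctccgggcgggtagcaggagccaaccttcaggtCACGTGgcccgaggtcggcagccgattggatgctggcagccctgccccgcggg
Gaa, chr11:119267776-119267875, plus strand: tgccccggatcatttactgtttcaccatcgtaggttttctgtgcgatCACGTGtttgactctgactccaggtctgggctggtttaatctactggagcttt
Arsa, chr15:89477425-89477524, minus strand: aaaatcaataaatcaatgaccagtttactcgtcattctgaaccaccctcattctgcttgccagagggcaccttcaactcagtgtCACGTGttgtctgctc
The longer form TCACGTGA, which contains the hexamer, was in 2 of the 14 (14.3%) and in 6 of the 37 (16.2%), against 2.47% of considered genes and 1.12% of the table. A match is a description of the letters and shows no binding.

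Genes of the endoplasmic reticulum (ER) accompanied the secreted and lysosomal proteins. A list of 110 ER folding and export genes was written after the higher genes had been seen, so it describes them and supports nothing. Of the 108 that reached 5 CPM, 21 were higher and 0 lower, and 66 of 109 tested were called higher. Txndc16, a thioredoxin-domain protein, was at 54.6 ± 3.87 CPM against 3.59 ± 0.839 and 3.77 ± 0.794. Creb3l1, an ER-bound transcription factor for secretory and collagen genes, was 9.05-fold and 7.99-fold higher, and Calu, a calcium-binding ER protein, reached 2971 ± 221 CPM, 2.97-fold and 2.89-fold higher. The folding sensors Uggt1 and Uggt2 and the degradation factors Edem1, Edem3, Sel1l and Erlec1 were also among the 21.

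Among 50 targets of ATF4, the transcription factor of the integrated stress response, 6 were higher and 0 lower, and the median log2 difference was 0.44. They were Atf5, Chac1, Slc7a11, Slc1a4, Jdp2 and Ero1l. Atf5, itself a stress-induced transcription factor, was at 25.5, 22.5 and 17.4 CPM in HD-het, against 3.74 to 5.40 in control and 3.78 to 6.62 in HD-homo. Chac1, which degrades glutathione, was at 19.6 ± 1.71 against 5.98 ± 0.335 and 6.37 ± 1.94, and Slc7a11, the cystine importer, at 24.6 ± 1.66 against 6.00 ± 0.972 and 8.42 ± 0.661. Of 25 amino acid and neurotransmitter transporters, 4 were higher, Slc1a4, Slc7a11, Slc38a6 and Slc43a2. Of 37 glutathione and NRF2 genes, 4 were lower and 0 higher. Gsto1, Gstp1 and Gstp2 lie on chromosome 19, and outside chromosomes 10, 15 and 19, where lower genes were frequent, 1 of 30 was lower. Gsto1 was at 99.5 ± 7.64 CPM against 368 ± 14.8 and 268 ± 36.5, and Txn1, thioredoxin, was 2.43-fold and 2.24-fold lower. Gstp1 and Gstp2 are neighbouring paralogs with near-equal values, so their reads may be split or shared.

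Growth factors, guidance molecules and their relatives followed. Of 57 ligands that reached 5 CPM, 8 were higher and 0 lower, and they included all 3 TGF-beta genes. Tgfb2 was at 128 ± 15.8 CPM against 26.4 ± 7.01 and 24.2 ± 1.48, Tgfb1 was 2.63-fold and 2.49-fold higher, and Tgfb3 2.99-fold and 2.25-fold. Fgf2 had the narrowest separation of these, with the lowest HD-het library at 21.2 CPM and the highest other at 15.6. Wnt5a, Bmp4, Hbegf and the BMP-binding Fstl1 completed the group, and Fstl1 was the most abundant at 2847, 2771 and 2858 CPM in HD-het libraries. Of 38 axon guidance genes, 8 were higher (21.1%) and 0 lower, and the median log2 difference was 1.17. Epha7, an ephrin receptor, was 6.74-fold and 8.55-fold higher, Sema7a 4.66-fold and 3.37-fold, and the secreted cues Ntn1 and Slit3 2.67-fold to 3.50-fold. The receptors Plxna3 and Neo1, the ephrin Efna5 and the semaphorin Sema4f were 2.04-fold to 2.89-fold higher.

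Of 30 cadherins and neural adhesion molecules, 2 were higher, Lrrn1 and Igsf8, and 1 lower, L1cam. Their median log2 difference was 1.58, with 25 of 30 above 0, and 30 of 49 tested were called higher and 5 lower. Control and HD-homo means were at least 1.5-fold apart in 23 of the 30, which kept those out. L1cam, an axonal adhesion molecule, was at 0.637, 0.768 and 0.615 CPM in HD-het, while control read 14.3, 13.6 and 5.32 and HD-homo 10.7, 8.93 and 4.53. Hoxb6 and Hoxb7 lie side by side (chr11:96285604-96301569) and encode homeobox factors that pattern the body axis. Hoxb7 was at 0.303 ± 0.0724 CPM, 21.9-fold and 32.0-fold lower, and Hoxb6 at 0.440 ± 0.149 against 6.38 ± 0.203 and 8.75 ± 1.64. Meis1, a Hox cofactor, and Foxf2, a mesenchymal forkhead factor, were 2.32-fold to 2.54-fold higher. Of 52 homeobox and other patterning factors that reached 5 CPM, these 2 higher and 2 lower genes were 3.85% each, near the shares over all genes. The list as a whole had a median of -0.13, equal to that of all genes when rounded. Of its 89 tested genes, 15 were called higher and 28 lower. Markers with higher levels outside the matrix lists were Cspg4, a proteoglycan of oligodendrocyte precursors and pericytes, and Tmem119, a bone and microglial membrane protein, at 262 ± 47.4 and 20.5 ± 3.19 CPM in HD-het. Olig1, Olig2, Sox10, Aif1, Cx3cr1 and P2ry12, which define those glial cells, stayed under 1 CPM in every line.

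Lxn, latexin, an inhibitor of carboxypeptidases at chr3:67457999-67463907, was at 0.225, 0.356 and 0.439 CPM in HD-het libraries. It was at 141, 129 and 124 CPM in control and 74.1, 85.7 and 106 CPM in HD-homo, 386-fold and 260.3-fold lower in HD-het. Eva1b, a small membrane protein, had 3, 2 and 1 counts in the HD-het libraries and was at 13.1 ± 0.487 CPM in control and 13.4 ± 3.17 in HD-homo, for ratios of pooled levels of 189 (86.7 to 517) and 198 (90.9 to 542). Cd82, a tetraspanin, was at 0.264 ± 0.0409 CPM against 24.5 ± 2.37 and 32.5 ± 3.35. These genes were close to silent in HD-het. The criteria held the means of the other lines under 1.5-fold apart, but each Lxn level in HD-homo lay below all its control levels.

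Parvb, which links integrins to actin through integrin-linked kinase, was 16.2-fold and 20.3-fold lower in HD-het, at 4.83 ± 0.614 CPM. Eps8, an actin-capping protein and EGFR substrate, was at 14.6 ± 3.59 CPM against 206 ± 19.5 and 174 ± 20.1. Llgl2, a cell polarity protein, Prrg4, a membrane protein, and Tst, a mitochondrial sulfurtransferase, were 4.16-fold to 6.57-fold lower. By level the lower genes were led by S100a6, a calcium-binding protein, followed by Rpl8, Npm1, S100a4 and Rps10. S100a6 was at 2723 ± 365 CPM against 6633 ± 47.8 and 5992 ± 605, and S100a4 at 664 ± 49.7 against 2015 ± 221 and 2093 ± 104. Together with S100a3 they form a run of 3 adjacent lower genes (chr3:90560356-90614414).

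Replication-dependent histones held more lower genes than any list fixed first. These genes supply the histones that package newly copied DNA, and they lie in clusters of near-identical copies. Of 58 that reached 5 CPM, 37 were lower (63.8%) and 0 higher, the median log2 difference was -1.35, and 58 of 64 tested were called lower and 1 higher. Hist1h2bp was at 3.26, 4.17 and 5.14 CPM in HD-het against 13.2 to 21.9 in the 6 other libraries, and Hist1h2bb was 3.89-fold and 5.35-fold lower. Hist2h2bb was the most abundant, at 595 ± 56.0 CPM against 1437 ± 199 and 1759 ± 280. The pairs Hist2h2aa1 and Hist2h2aa2, Hist2h3c1 and Hist2h3c2, and Hist1h2bq and Hist1h2br each had equal counts in all 9 libraries, so they are uncertain as separate genes. In all, 12 of the 337 lower rows and 4 of the 320 higher rows shared their counts with another such row.

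The 33 lower rows between 20 and 30 Mb of chromosome 13 held 30 genes of this family, among 64 genes considered there. The longest run of adjacent lower genes, 7 histone genes, lay at chr3:96238479-96270192, and runs of 6 and 5 lay at chr13:23570663-23621124 and chr13:21833743-22042949. A CCAAT box, searched as CCAAT on both strands, was in 28 of 34 promoters of the lower histone genes (82.4%) and in 44 of 53 of the list (83.0%), against 43.5% of considered genes. Among all lower genes 46.8% held it, and among all higher genes 39.4%. The stretches below, the last 100 bases before the start site, show it in capitals in Hist1h2bb, 1 of the leading genes, and in Hist1h2bm, which lies in another run of lower histone genes on the chromosome.
Hist1h2bb, chr13:23746634-23746733, plus strand: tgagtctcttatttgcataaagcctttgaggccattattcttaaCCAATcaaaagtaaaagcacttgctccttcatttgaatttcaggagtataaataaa
Hist1h2bm, chr13:21721944-21722043, plus strand: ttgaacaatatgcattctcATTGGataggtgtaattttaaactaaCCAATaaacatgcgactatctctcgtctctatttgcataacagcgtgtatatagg
Of the other motifs searched on both strands, GGAATG was in 16.7% of higher, 16.3% of lower and 13.9% of considered promoters (16.6% of the table), and TGACTCA in 3.25%, 4.18% and 4.27% (5.95% of the table). CCAAT was in 41.1% of the table.

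Cells make these histones in S phase, and most cell cycle and replication genes had a log2 difference below 0. Of 45 such genes, Mki67 and E2f1 were higher (4.44%), and 3 genes, among them Cdk6 and Gmnn, were lower (6.67%). Over all genes the shares were 3.23% and 3.40%. Mki67, a marker of proliferating cells, was at 334 ± 14.6 CPM against 156 ± 4.31 and 111 ± 25.5. The list had a median log2 difference of -0.45, with 33 of 45 below 0. Of 46 tested, 7 were called higher (15.2%) and 26 lower (56.5%), against 21.8% and 21.9% of all genes tested.

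Proteins of the ribosome were lower as a group. Of 79 cytosolic ribosomal protein genes that reached 5 CPM, 14 were lower (17.7%) and 0 higher. All 79 lay below 0 in log2 difference, with a median of -0.85 by column totals and -0.79 by TMM, and 81 of 82 tested were called lower and 0 higher. Most were thus nearer than the 2-fold criterion, and with TMM factors 9 met it.

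Among the 14 were Rps10, Rps12, Rps15, Rps18, Rps19, Rps23, Rps26, Rps28, Rpl8, Rpl26, Rpl27, Rpl37 and Rpl41, from both subunits. Rps15 had the largest distance, at 413, 416 and 411 CPM in HD-het, 1114, 1103 and 1142 in control and 1310, 1139 and 1144 in HD-homo, 2.71-fold and 2.90-fold lower. Rpl8 was the most abundant, at 1126 ± 53.3 CPM against 2744 ± 175 and 3519 ± 637. Rps12, Rps15, Rps26 and Rpl41 lie on chromosome 10 and Rpl8 and Rpl37 on chromosome 15, where lower genes were frequent. Without chromosomes 10, 15 and 19, 8 of 71 were lower. Ribosomal protein genes have many processed pseudogenes, and reads could be split with them.

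The factors that assemble ribosomes accompanied their proteins. A list of 134 ribosome biogenesis factors was written after the lower genes had been seen. Of the 134, 36 were lower (26.9%) and 0 higher, and 116 were called lower (86.6%). Over all genes 3.40% were lower, and 21.9% of all genes tested were called lower. Outside the chromosomes left out for the ribosomal proteins, 21 of 110 were lower. Npm1, the abundant nucleolar protein nucleophosmin, was at 1255, 1386 and 1473 CPM in HD-het, 2966, 2974 and 2974 in control and 3443, 3216 and 3558 in HD-homo. Dkc1, the pseudouridine synthase of box H/ACA particles, was 2.61-fold and 2.60-fold lower, and Gar1 and Nhp2, its partners in those particles, were also among the 36. Fbl, the methyltransferase of box C/D particles, was at 114 ± 13.8 CPM against 257 ± 1.35 and 230.2 ± 15.5. Of 53 heat shock proteins and chaperones, Dnajc1 and Dnajc3 were higher (3.77%), and Hspe1, Dnajc12 and Cct5 lower (5.66%). Over all genes the shares were 3.23% and 3.40%. Outside the same chromosomes, 1 of 49 was lower. Cct5, a subunit of the TRiC chaperonin, was at 592 ± 16.9 CPM against 1428 ± 62.3 and 1301 ± 13.7.

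**Figure D3:**
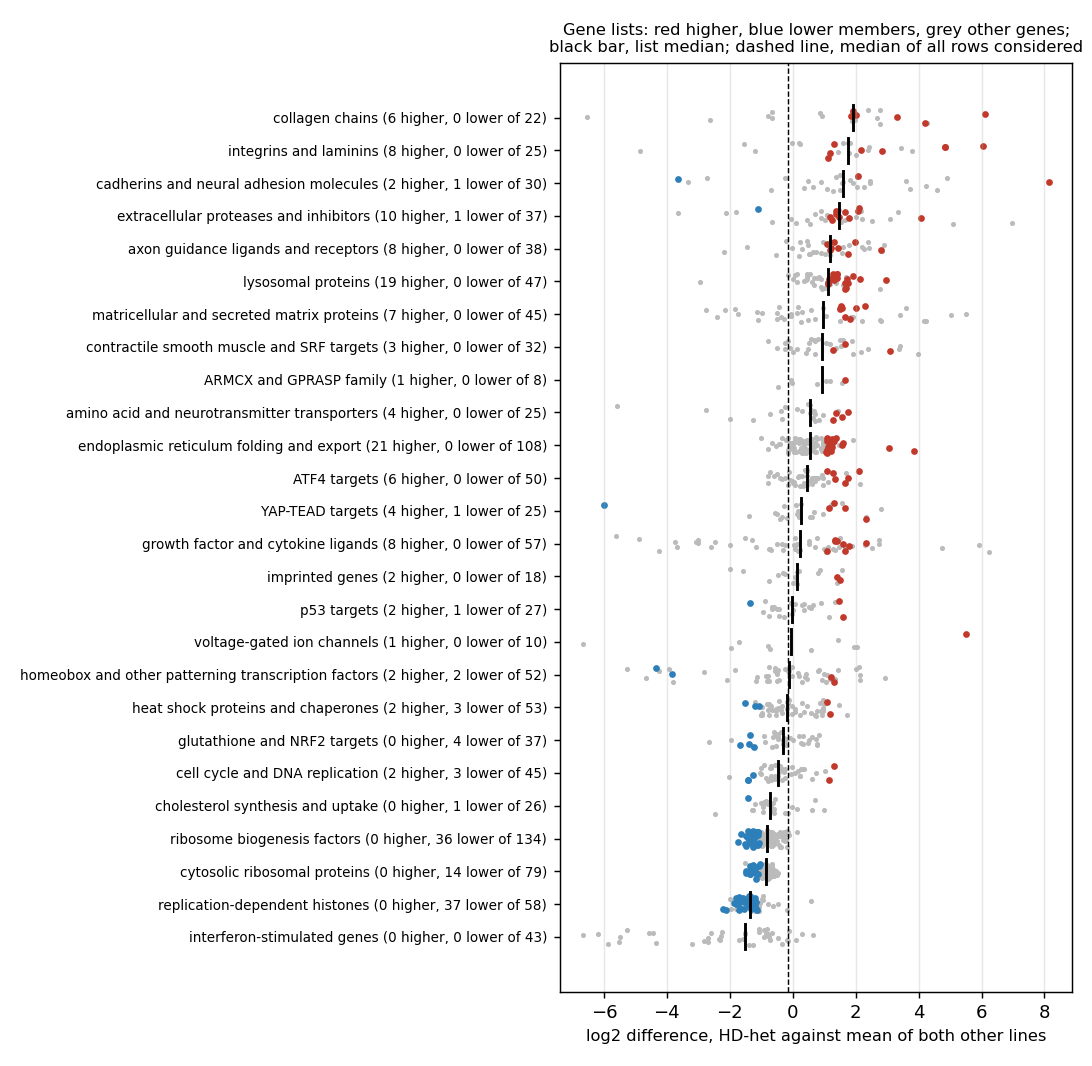
Log2 difference of HD-het from the mean of both other lines for each gene that reached 5 CPM, by gene list ordered by median (black bar). Red and blue points are the higher and lower genes, grey points the rest of each list, and the dashed line the median of all 9918 genes at -0.13. Collagens and integrins lie at the top, and histones, ribosomal proteins and the interferon-stimulated list, which holds no coloured point, at the bottom.

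The remaining lists held few such genes. Imprinted genes had 2 higher of 18 (11.1%), Igf2r and Sgce. Voltage-gated channel genes had 1 higher of 10 (10%), Kcnab1, and the ARMCX and GPRASP family 1 higher of 8 (12.5%), Armcx1. Of 27 p53 targets, Pmaip1 and Trp53inp2 were higher (7.41%) and Sesn1 lower (3.70%). Outside the chromosomes left out for the ribosomal proteins, 0 of 21 p53 targets were lower. Cholesterol synthesis had 1 lower of 26 (3.85%), Hmgcs1. Over all genes 3.23% were higher and 3.40% lower, and the shares of these lists rest on 1 or 2 genes each. Of 43 interferon-stimulated genes, 0 were higher or lower in this sense. They differed strongly between the other lines, with a median log2 ratio of HD-homo to control of 3.43, and 39 of the 43 had those means at least 1.5-fold apart. Their median log2 difference of -1.51 goes with a median log2 ratio of HD-het to control of 0.84 and to HD-homo of -2.07, which places HD-het between the others.

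The position of the genes had no part in their choice, and the lower genes were unevenly spread over the chromosomes. Chromosome 15 held 74 lower genes among 406 considered (18.2%), chromosome 10 held 44 of 486 (9.05%) and chromosome 19 held 26 of 360 (7.22%), against 3.39% of all placed genes. These 3 chromosomes held 43.0% of the lower genes and 12.7% of the considered genes. Chromosome 13 held 44 of 416 (10.6%), but 11 of 352 (3.13%) outside 20 to 30 Mb, where the histone cluster lies. Chromosome 18 held 0 of 251, chromosome 7 held 3 of 645 and chromosome 1 held 3 of 578.

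The shift was not limited to the chosen genes. The median log2 difference over all genes of chromosome 15 was -0.68, and -0.56 over its 327 genes that were neither higher nor lower. For chromosomes 10 and 19 the medians were -0.40 and -0.40, and over all genes -0.13. Chromosome 13 had a median of -0.44, and of -0.36 outside 20 to 30 Mb, so its shift was not limited to the histone cluster. On chromosome 13 the other lines also differed, with a median log2 ratio of HD-homo to control of 0.26. On chromosome 15, 84.2% of genes had a log2 difference below 0, against 58.9% of all genes, and 286 of 516 tested genes were called lower (55.4%). Between HD-homo and control its median log2 ratio was 0.06. Each HD-het library showed it, with medians for chromosome 15 of -0.41, -0.40 and -0.39 relative to the 9-library mean, against 0.14 to 0.15 in control and 0.15 to 0.18 in HD-homo libraries. The 11 windows of 10 Mb across chromosome 15 had medians from -1.09 to -0.10, the latter in a window of 11 genes. With TMM factors 62 genes of chromosome 15 were lower (15.3%).

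Genes from several families sat on these chromosomes. Among adjacent lower genes were Rpl41, Pa2g4 and Rps26 (chr10:128548110-128626506), Sf3a2, Oaz1 and Lsm7 (chr10:80798735-80855209) and Espl1, Pfdn5 and Myg1 (chr15:102296254-102338139). Over all chromosomes, 83 of 331 placed lower genes (25.1%) sat beside another lower gene, and 22 of 316 higher genes (6.96%) beside another higher one. The 83 include the histone runs of chromosomes 3 and 13, and no such share was worked out for all considered genes. DNA copy number was not measured, and the part of the chromosomes' copy number in the lower genes was not tested. Higher genes were rarer on chromosomes 15 and 10, at 1.23% of genes on chromosome 15 and 1.23% on chromosome 10. The 5 on chromosome 15 were Col14a1, Itga5, Wisp1, Arsa and Nell2, which was named after its values were seen.

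**Figure D4:**
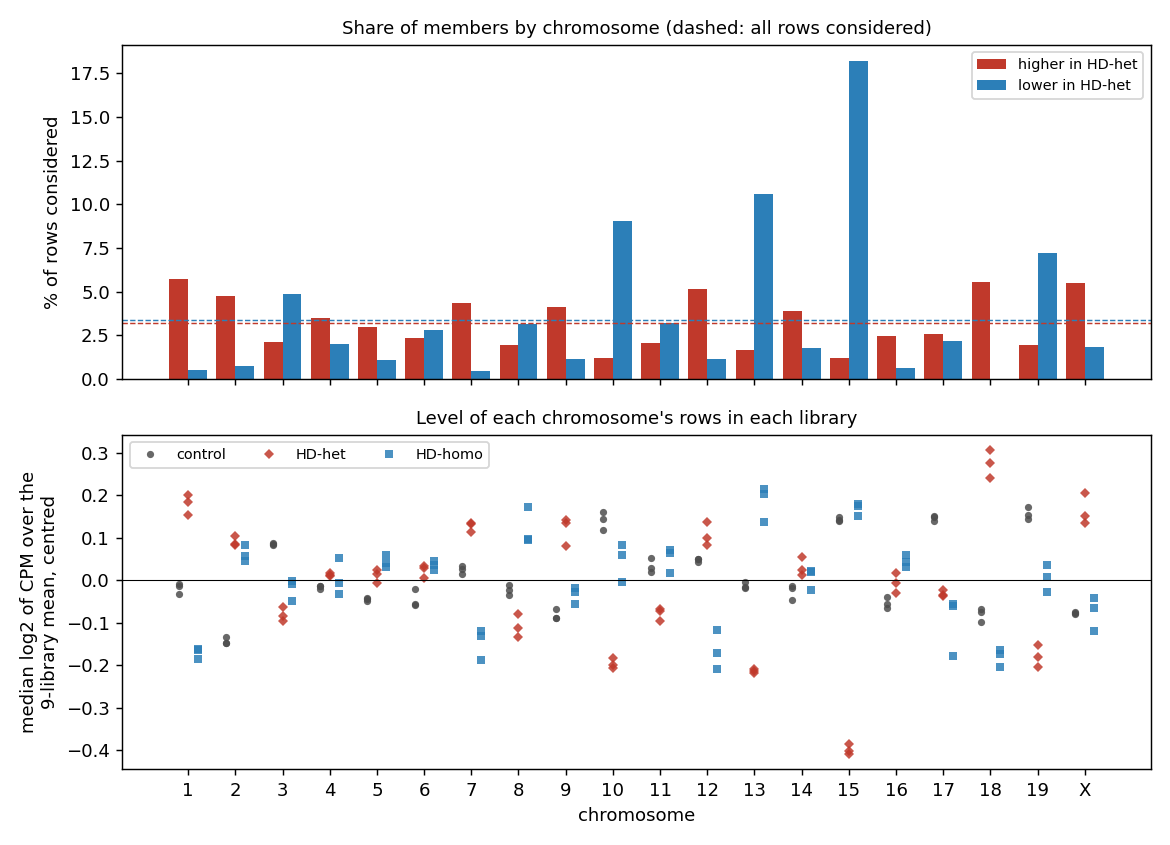
Upper panel, share of the genes considered on each chromosome that were higher (red) or lower (blue) in HD-het, with dashed lines at the shares over all genes (3.23% and 3.40%). Lower panel, median over each chromosome's genes of the log2 ratio of a library's CPM to the 9-library mean, centred on each library's median, with 1 point per library: HD-het libraries lie near -0.40 for chromosome 15 and next lowest for chromosomes 10, 13 and 19, and highest for chromosome 18.

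The genes also differed in length. The median coding length, from the longest coding transcript in GENCODE M21, was 1769 bases for the higher genes (318 of 320 matched) and 867 bases for the lower genes (325 of 337 matched), against 1407 bases for all considered genes. Without the histone, ribosomal protein and ribosome biogenesis lists, the lower genes had a median of 1023 bases, and outside chromosomes 10, 15 and 19 a median of 791 bases. Median GC content of the coding sequence was 54.0% in higher and 55.0% in lower genes against 52.5% in all, so base composition put both groups on the same side.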

How the data were processed

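The values deposited by the authors are whole-number counts for each gene symbol and library, neither normalized nor pooled. Per the labels, 26 to 32 nt fragments of 80S monosomes were sequenced, trimmed with cutadapt and aligned with Bowtie 1.0.1 to mm10. The counting program, annotation and use of strand are not given in the sources used here, so overlapping or antisense genes and near-identical copies are uncertain. Column names gave the sample of each of the 9 libraries. Totals ran from 22504543 to 41888701 counts, and intervals and floors (3 counts) cover counting error only.

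CPM were counts divided by column totals. edgeR 4.0.16 (R 4.3.3, limma 3.58.1) fitted all 9 libraries with TMM factors, filterByExpr and group means, and p-values were Benjamini-Hochberg adjusted over 12678 genes with a threshold of 0.05. Scripts were tested on simulated data. Replicates are rounds of culture of 1 line, so error describes those rounds only. RefSeq GRCm38.p6 placed 99.6% of considered rows. Both an older and a current symbol had rows for 283 genes.

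In each direction the genes named were the 12 with the largest distance and at least 10 CPM, the 5 most abundant, all in 24 gene lists or the cell type markers, 3 just inside and 3 just outside the threshold, and adjacent ones. Members of 2 further lists were named after their values were seen. The genes and lists were chosen with earlier results of these data known. Alternatives were other scalings, thresholds and filters, DESeq2 1.42.0, the replicate number as a block, left-out rows and left-out libraries. Some genes are not reported here by name, and the counts include them.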

Additional observations from a re-analysis of the deposited data

How the results depend on the processing

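The count of HD-het genes outside the range of the other lines followed the criteria. With a 1.5-fold distance there were 702 higher and 1186 lower genes, with a 3-fold distance 106 and 51, and with control and HD-homo means closer than a ratio of 5 to 4 there were 212 higher ones. Without chromosomes 10, 15 and 19, an alternative chosen after seeing the data, 193 lower genes were left, since their genes were removed. Leaving out 1 library gave 278 to 332 higher and 312 to 352 lower genes. The other alternatives, which were TMM and DESeq2 scaling, minimum means of 1 and 10 CPM, and the table without older symbols, identical rows or the 10 highest rows, kept both counts within 1.5 times. TMM scaling kept 98.4% of the higher and 78.9% of the lower genes. The edgeR calls stayed within 1.5 times under each alternative, from 2400 to 2865 higher and 2449 to 3084 lower, and 2439 to 2859 and 2501 to 2816 with 1 library left out. With the replicate number as a block 2683 and 2726 genes were called. Same-numbered libraries did not deviate together (correlations -0.36 to 0.17, over 0.1 in 1 of 9 pairs), and the number was closest in 5 of 18 cases, so the numbers were not taken to pair the libraries. Genes with a few counts in a line have distances that rest on those counts.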
